A study of Mus musculus with 5 samples.

Results

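The 10 genes described here carry the IL-15 signal and its classic response in lymphocytes, namely the receptor chains *Il2rb*, *Il2rg* and *Il15ra*, the kinases *Jak1* and *Jak3*, the transcription factors *Stat5a* and *Stat5b*, and the targets *Socs1*, *Cish* and *Bcl2*. They were taken from a list of IL-15 response genes and are 10 of 21938 protein-coding genes of the mouse annotation. Acetylated histones were mapped by ChIPseq in T_M cells, the memory-type CD8+ T cells that arise when activated T cells are grown with IL-15, in 2 WT libraries and 3 TPdh-/- libraries. A gene's window was its body in GRCm38 with 10 kb on each side, and every peak of the 5 deposited lists that touched a window was kept.

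TPdh-/- cells came from mice with a floxed *Pdha1* allele crossed with CD4-Cre transgenic mice, so that the E1 alpha subunit of pyruvate dehydrogenase complex was lost in T cells. CD4-Cre acts in thymocytes before the CD4 and CD8 lineages part. *Pdha1* is X-linked, and the study used male and female mice of 8 to 12 weeks. The WT libraries are labelled wildtype, and which alleles those mice carried is not given in the sources used here. In the study's methods, OT-I cells, which carry a transgenic receptor for an ovalbumin peptide, were activated with that peptide for 3 days and both genotypes were then cultured with IL-15 at 10 ng/mL for 4 days. The antibody recognised acetylated lysine on histones, and the sample descriptions read acetyl K18. The labels do not say whether replicates came from separate mice, so any p-value measures only the spread between these libraries.

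IL-15 is held on the surface of a presenting cell by IL-15R alpha, the product of *Il15ra*, and is passed to the IL-2R beta chain (*Il2rb*) and the common gamma chain (*Il2rg*) of the responding T cell. JAK1, bound to the beta chain, and JAK3, bound to the gamma chain, then phosphorylate STAT5A and STAT5B, which move to the nucleus and bind palindromic sites of the form TTCNNNGAA. Bcl-2, the survival factor that memory CD8+ T cells rely on, CIS (*Cish*) and SOCS1 are known products of this pathway, and the last pair of them act back on it as inhibitors. Histone acetylation marks active promoters and enhancers.

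The palindrome was searched in the merged regions of the 5 lists, where overlapping peaks of any library were joined. It reads the same on both strands. Of 31 distinct regions in the 10 windows 17 (54.8%) held the motif, with 31 matches in all, against 32.7% of all 18410 merged regions. The member regions were wider, with a median of 1393 bp against 1159 bp, and held 0.62 matches per kb against 0.33. Their median GC content was lower, 47.2% against 49.9%, and its part in the match rate was not tested. The matches were uneven over the genes. The *Cish* promoter region and an intronic *Bcl2* region held 4 each, and no region of *Il2rb* or *Jak3* held any. Other *Bcl2* regions held 3, 3, 2, 2 and 1 matches, while no region of *Il2rg*, *Il15ra* or *Jak1* held more than 1. The rate per kb over all member regions thus rested largely on *Bcl2* and *Cish*, and the rate without them was not computed. The stricter forms TTCCNGGAA and TTCTNAGAA, which are contained in the general form, occurred in 8 of 31 member regions (25.8%) and in 10.3% of all merged regions. A match describes letters and not a bound site. Matches lay inside the peak of every library at *Il15ra*, downstream of *Socs1* and in an intron of *Bcl2*, and the densest group of matches lay at the *Cish* promoter. The promoter regions of *Il2rg* and *Bcl2*, which also had a peak in all 5 libraries, held 1 and 2 matches that are not printed. The peak of TPdh-/- replicate 2 alone covered the *Il2rg* match, and the peaks of 4 libraries covered those at *Bcl2*. The sequences below are printed because they are the matches in regions with a peak in all 5 libraries that the results below turn on. They are the plus strand of GRCm38 5′ to 3′, with the motif in capitals.
Il15ra intron, chr2:11706032-11706061: gggtcacatcTTCTGGGAActgagccagga
Cish promoter, chr9:107296654-107296683: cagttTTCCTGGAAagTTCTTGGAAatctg
Cish promoter, chr9:107296762-107296791: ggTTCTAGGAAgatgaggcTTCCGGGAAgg
Socs1 downstream, chr16:10772206-10772505: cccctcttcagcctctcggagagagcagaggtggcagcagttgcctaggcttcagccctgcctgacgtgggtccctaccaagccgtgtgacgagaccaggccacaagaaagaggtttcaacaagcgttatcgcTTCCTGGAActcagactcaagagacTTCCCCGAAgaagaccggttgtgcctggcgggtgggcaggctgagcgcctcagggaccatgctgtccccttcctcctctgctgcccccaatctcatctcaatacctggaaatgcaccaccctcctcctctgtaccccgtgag
Bcl2 intron, chr1:106612828-106612857: gcccagccttTTCTGAGAAaaggaagaaaa
Bcl2 intron, chr1:106613123-106613152: cagacattctTTCACAGAAcagattgctga
Bcl2 intron, chr1:106613750-106613779: cgttccagagTTCTCAGAAaaagccaaagt

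The *Cish* promoter held 4 matches within 150 bp, in 2 pairs, and 2 of them had the stricter form. Of all 18410 merged regions, 2 (0.0109%), this one included, held as many within that distance, and of 2631 regions of like width (within 20%) 1.03% held at least 4 anywhere. By its RefSeq start in GRCm38.p6, the *Cish* promoter (250 bases before the start to 50 after) contained 2 matches, which 0.457% of 32851 promoters of that length did, while 8.3% contained at least 1. RefSeq promoters were matched for 9 of the 10 genes (all but *Il2rb*), in 12 entries, and *Cish* had the single entry of the 12 with a match. All 4 *Cish* sites lay inside an annotated exon, −51, −40, 54 and 71 bp from the nearest start site. The peak of 4 of 5 libraries covered them, and in TPdh-/- replicate 1 the peak ended upstream of them.

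The lists held 15962 and 8859 peaks in WT and 4920, 5419 and 9418 peaks in TPdh-/- cells, so the groups overlapped. Peak lists carry no read numbers, and the depth behind each list is unknown. Of 8 CD8+ T cell marker genes, 7 and 5 had a peak within 3000 bp of a start site in WT, and 2, 4 and 5 in TPdh-/- cells. *Cd8b1* and *Lck* had it in all 5 libraries, *Cd8a* in WT replicate 1 alone and *Trac* in none. Markers of other cells were mostly without a peak, namely all 4 myeloid genes, 2 of 3 NK cell genes and 2 of 3 erythroid genes. Of the exceptions, *Cd4* had a peak in both WT libraries and in no TPdh-/- library, *Zbtb7b* and *Eomes* had one in WT replicate 1, and *Klf1* had one in both WT libraries and TPdh-/- replicate 3. The part of these cells in the results was not tested.

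The 10 windows, 646.7 kb in all, held 28 and 16 peaks in WT and 11, 11 and 22 in TPdh-/- cells. The means were 22 ± 8.49 (SD, n = 2) and 14.7 ± 6.35 (SD, n = 3). The difference of 0.58 on the log2 scale was about the size of the spread between replicates (pooled SD within groups 0.58). Covered length was 44.2 and 22.8 kb in WT and 12.6, 12.6 and 30.7 kb in TPdh-/- cells, which also overlapped. These sums followed the lengths of the lists. Per 1000 peaks of a list, the windows held 1.75 and 1.81 peaks in WT and 2.24, 2.03 and 2.34 in TPdh-/- cells, so that WT was the lower group and the groups did not overlap. The same ratio over the windows of all protein-coding genes was 823 and 799 in WT and 808, 793 and 820 in TPdh-/- cells. When every list was reduced to its strongest 4920 peaks, the length of the shortest, the windows held 4 and 7 peaks in WT and 11, 8 and 8 in TPdh-/- cells. This cut took most from the list of WT replicate 1 and nothing from that of TPdh-/- replicate 1. In WT the member peaks had a median percentile of 42.5 and 34.7 in the uncut lists. The same count over all protein-coding genes was not computed, so the counts at equal length have no background to be read against.

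**Figure D1:**
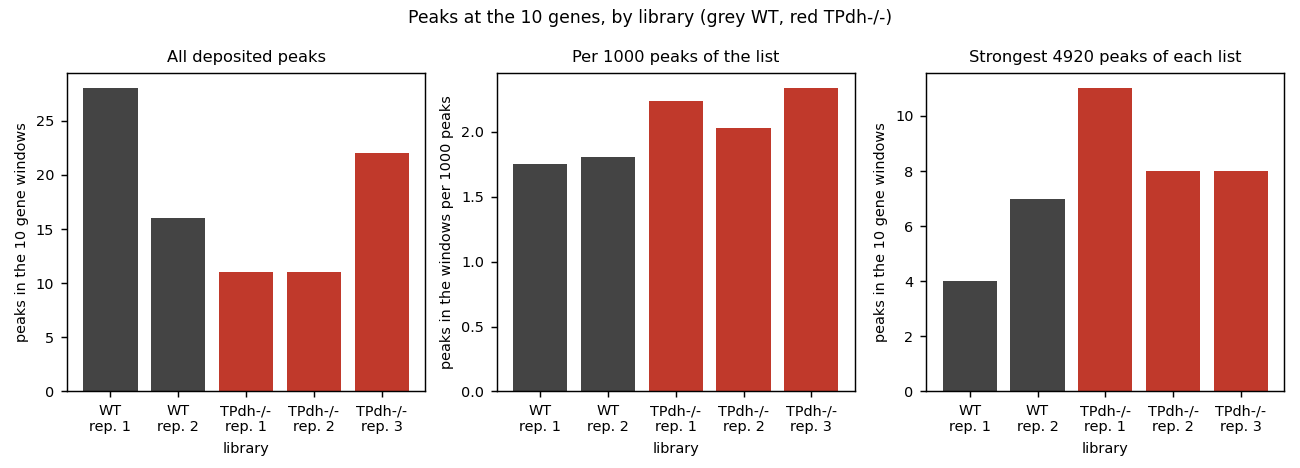
Peaks in the 10 gene windows in each library, as numbers of all deposited peaks, per 1000 peaks of the list, and among the strongest 4920 peaks of each list. WT is grey and TPdh-/- is red, and each bar is 1 library without an error bar. By number the groups overlap (28 and 16 against 11, 11 and 22), while in the other panels both WT bars lie below each TPdh-/- bar. For the strongest 4920 peaks no background over all genes was computed, and the cut shortens the lists unequally.

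An own-promoter peak, within 3000 bp of any annotated start site of the gene, was found for 9 and 7 of the 10 genes in WT and for 7, 5 and 9 in TPdh-/- cells. The share of all protein-coding genes was 42.1% and 24.8% in WT and 15.3%, 16.5% and 27.9% in TPdh-/- cells. *Il2rg*, *Il15ra*, *Cish* and *Bcl2* had the peak in all 5 libraries, as did 10.9% of protein-coding genes. *Il2rb*, *Jak3* and *Stat5b* had it in both WT libraries and not in every TPdh-/- library, a pattern of 13.5% of protein-coding genes. None of the 10 had it in both WT and no TPdh-/- library, which held for 2.21% of protein-coding genes. No member had more peaks in its window in both WT libraries than in each TPdh-/- library, and none had fewer, where 8.86% and 0.00812% of protein-coding genes with a peak in the window did.

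**Figure D2:**
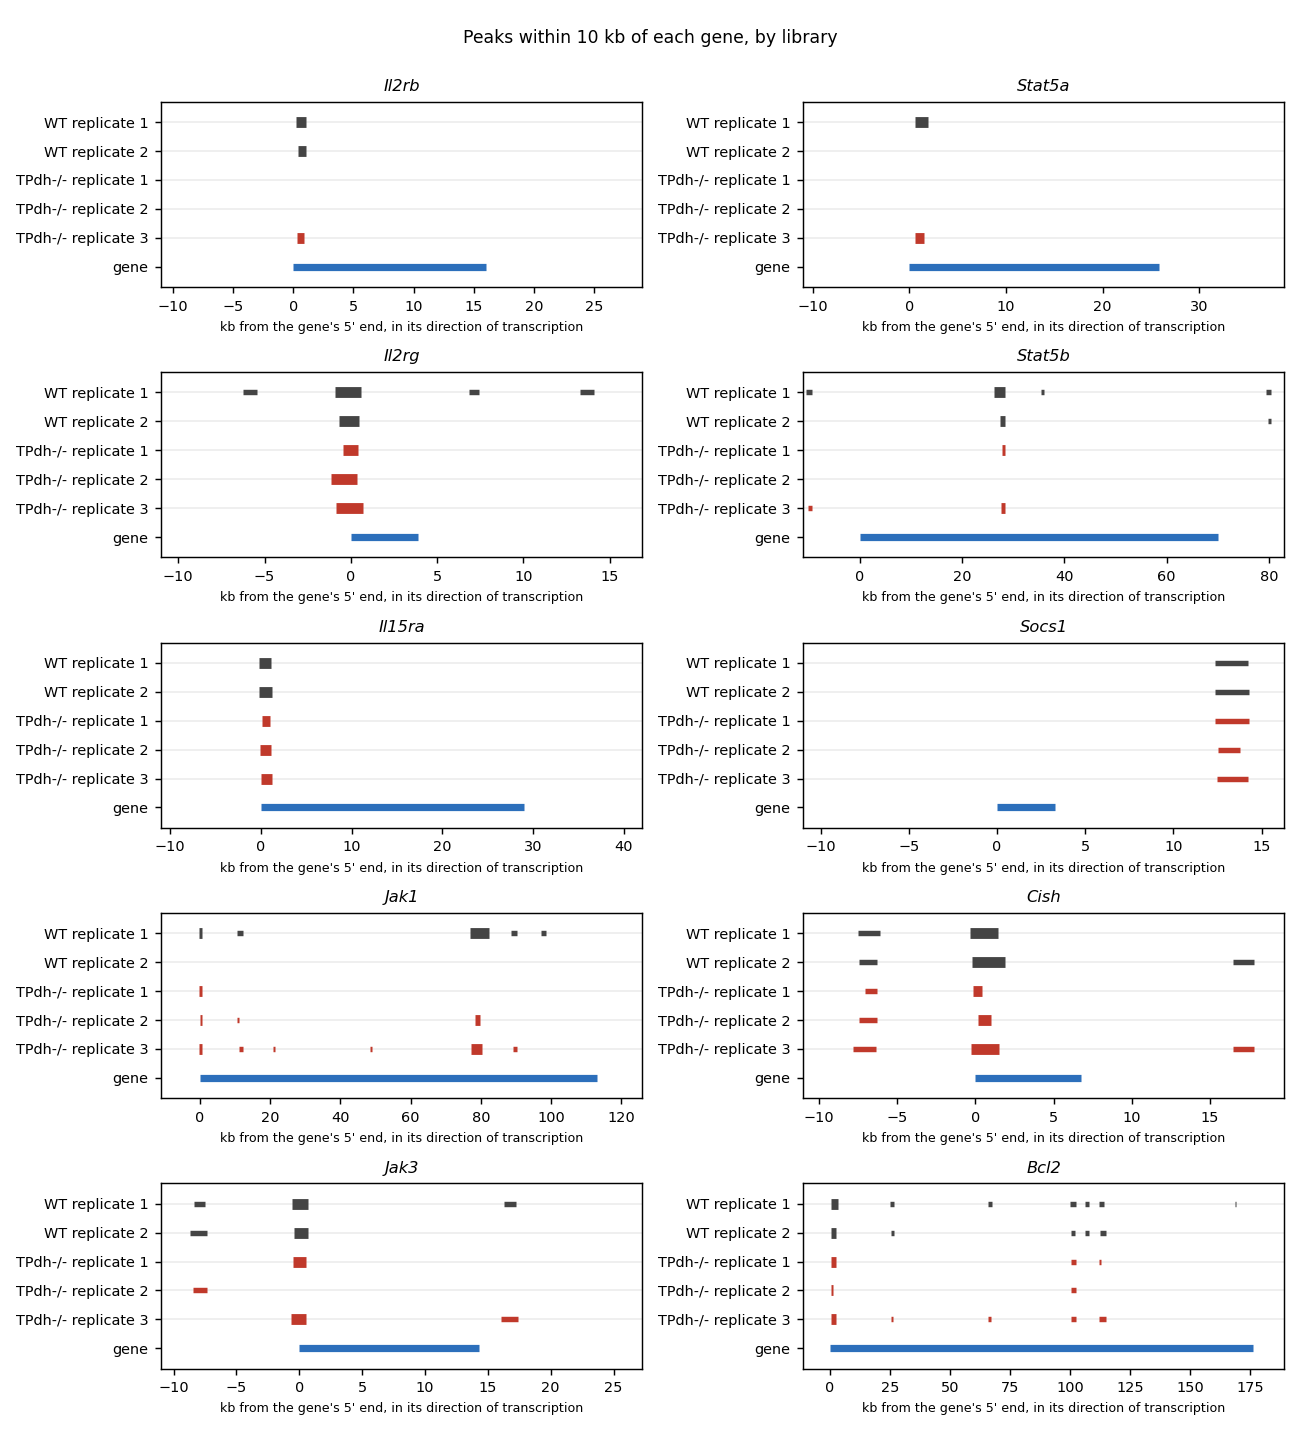
Peaks in the window of each gene, by library, against the distance in kb from the gene's 5′ end in its direction of transcription. Blue bars are gene bodies, thick segments are own-promoter peaks and thin segments other peaks, in grey for WT and red for TPdh-/-. *Il15ra* has its single peak in all 5 libraries, *Socs1* has its single peak past its 3′ end in all 5, and *Jak1* is empty in WT replicate 2.

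The strength of a peak is given as its percentile by −log10 q in its own list, where 100 is the strongest and a library without the peak counts as 0. Percentiles and ranks of lists of unequal length are not on a common scale of reads. With 2 against 3 libraries the exact two-sided permutation test cannot give less than 0.2, so no gene could pass 0.05. The mean percentile was higher in WT for 7 of the 9 genes with an own-promoter peak and lower for 2. The share of all protein-coding genes with a higher WT mean was not computed, so this count has no background to be read against. *Stat5b* was 1 of 9 with groups that did not overlap. Over all protein-coding genes with the peak in at least 1 library, both WT percentiles were above each TPdh-/- percentile for 21.2%, and below each for 0.369%.

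**Figure D3:**
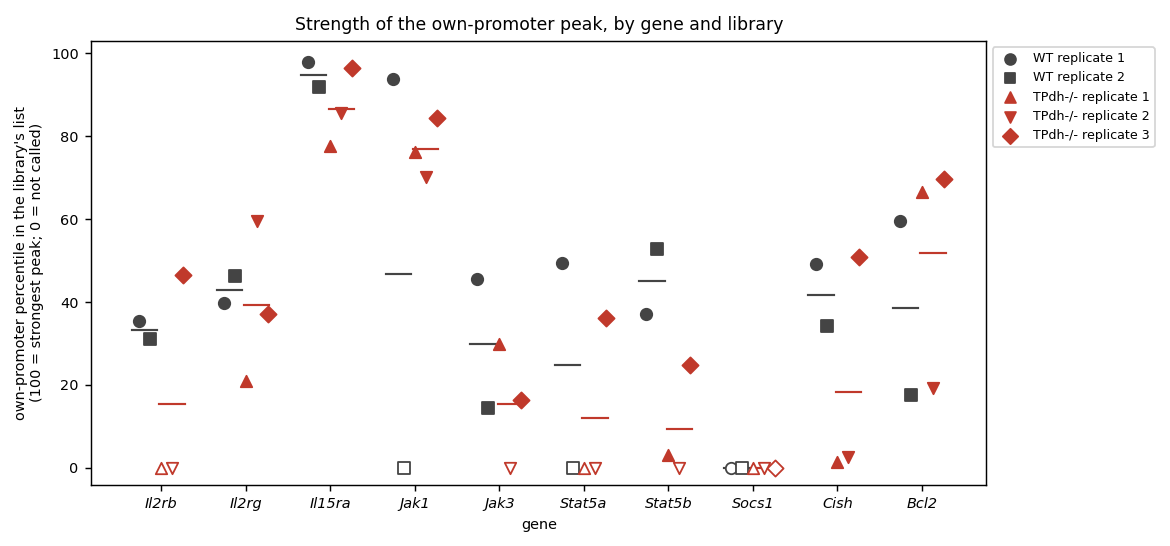
Percentile of the own-promoter peak by −log10 q within each library's list, for the 10 genes. Filled symbols are called peaks, open symbols at 0 are libraries without the peak, grey is WT and red TPdh-/-, and horizontal lines are group means over 2 and 3 libraries. *Il15ra* lies between 77.6 and 97.9 in all 5 libraries, and *Stat5b* is the single gene whose groups do not overlap.

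*Il15ra* had the strongest acetylated promoter of the 10 genes in each library, and no other peak in its window. Its peak ranked 333 of 15962 and 732 of 8859 in WT, and 1104 of 4920, 776 of 5419 and 339 of 9418 in TPdh-/- cells. The corresponding percentiles were 97.9 and 91.7 in WT and 77.6, 85.7 and 96.4 in TPdh-/- cells, and fold enrichment ranged from 2.94 to 3.45. TPdh-/- replicate 3 lay between the WT libraries, and the difference of 8.27 percentiles did not pass the test (exact permutation test, two-sided p = 0.4) and was 3.78 without TPdh-/- replicate 1. The merged region, chr2:11705047-11706563, was centred 5 bp upstream of the nearest of the gene's start sites, and the match printed above lies in an intron, 194 bp after a start site.

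The *Il2rg* promoter, on the X chromosome, was acetylated in all 5 libraries at a middle strength. Percentiles were 39.7 and 46.2 in WT and 21.01, 59.7 and 37.1 in TPdh-/- cells, and fold ranged from 2.12 to 2.49. The WT values fell inside the TPdh-/- range (difference 3.72, exact permutation test, two-sided p = 0.8). By fold in place of −log10 q, both WT libraries were below each TPdh-/- library, with a difference of −8.21 percentiles (exact permutation test, two-sided p = 0.2, the smallest possible). The share of protein-coding genes with this order by fold was not computed. The region, chrX:101267542-101269407, also lies within 3000 bp of a start site of *Gm20489*. WT replicate 1 had 3 more peaks in the window, near the start sites of *Foxo4*, *Gm614* and *Med12*, at percentiles between 2.65 and 9.70.

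*Il2rb*, the chain that with *Il2rg* makes the signalling pair, had an own-promoter peak in both WT libraries and in TPdh-/- replicate 3. Percentiles were 35.5 and 31.1 in WT and 46.4 in TPdh-/- replicate 3, with no peak anywhere in the window of the other TPdh-/- libraries. The highest value was thus a TPdh-/- value, and the group difference of 17.8 had an exact two-sided permutation p of 0.6. Without TPdh-/- replicate 3 it was 33.3. The region at chr15:78494172-78495017 was 846 bp wide and centred 677 bp past the start site.

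*Jak1* carried a narrow, strong promoter peak in 4 of 5 libraries and none in WT replicate 2, whose list had no peak in the whole 113 kb gene or its flanks. Percentiles of the promoter peak at chr4:101264501-101265522 were 93.7 in WT replicate 1 and 76.2, 70.1 and 84.4 in TPdh-/- cells, with fold between 2.63 and 2.75. Leaving out WT replicate 2 turned the difference between WT and TPdh-/- from −30.0 to 16.8 percentiles. With all 5 libraries the exact two-sided permutation p was 0.8. This promoter was the most CpG-rich of the member regions, with 67.9% GC and an observed to expected CpG ratio of 0.88, above 95.3% of all merged regions.

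Inside *Jak1* lay 6 further regions. The widest, chr4:101182938-101188365, spans internal start sites of the gene and was 5428 bp wide in WT replicate 1, at the 99.98th percentile of width in that list. It was 3132 bp wide in TPdh-/- replicate 3 and 1459 bp in TPdh-/- replicate 2, with fold between 1.61 and 1.68. Its base composition differed from that of the 5′ promoter, with an observed to expected CpG ratio of 0.15. Of the other 5, an intronic region was called in WT replicate 1 and TPdh-/- replicates 2 and 3, at percentiles 26.2, 1.97 and 4.03, an exonic region in WT replicate 1 and TPdh-/- replicate 3, and 3 intronic regions in a single library each.

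*Jak3* had a peak over its start site in both WT libraries and in TPdh-/- replicates 1 and 3. Percentiles were 45.5 and 14.4 in WT and 29.9 and 16.5 in those TPdh-/- libraries, and fold ranged from 2.2 to 2.69. The values were interleaved (difference 14.5, exact permutation test, two-sided p = 0.6). TPdh-/- replicate 2 had instead the peak 8.0 kb upstream, within 3000 bp of a start site of *Unc13a*, which it shared with both WT libraries. A region past the 3′ end, near a start site of *Gm45756*, appeared in WT replicate 1 and TPdh-/- replicate 3.

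*Stat5a* and *Stat5b* are transcribed away from each other on chromosome 11. The *Stat5a* promoter peak, chr11:100859954-100861235, was called in WT replicate 1 at percentile 49.5 and in TPdh-/- replicate 3 at 36.3, which had the longest list of their groups, and in no other library. The difference of 12.7 had an exact two-sided permutation p of 0.8. The same region falls in the window of *Stat5b*.

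*Stat5b* had no peak within 3000 bp of its 5′ end in any library. Its own-promoter region, chr11:100822258-100824517, lay 27.3 kb inside the gene at an internal start site. Percentiles there were 37.2 and 52.9 in WT, 3.18 and 24.9 in TPdh-/- replicates 1 and 3, and the peak was not called in TPdh-/- replicate 2. Both WT values were above each TPdh-/- value, by 35.7 percentiles on average (exact permutation test, two-sided p = 0.2, the smallest possible). A further region downstream of the gene, chr11:100770335-100771326, within 3000 bp of a start site of *Ghdc*, was called in both WT libraries, at percentiles 65.9 and 21.5, and in no TPdh-/- library. With lists of equal length the *Stat5b* difference was 6.54 and its groups overlapped.

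Of the inhibitors, *Socs1* had no own-promoter peak in any library. Its single region, chr16:10771246-10773191, lay past the 3′ end and no other start site was within 3000 bp of it. It was called in all 5 libraries at percentiles 57.2 and 54.6 in WT and 36.8, 64.9 and 64.7 in TPdh-/- cells, with a fold between 1.66 and 1.92. The WT values fell inside the TPdh-/- range. The region lies across the outer edge of the window, 10 kb past the gene, and the midpoint of the peak is inside the window in TPdh-/- replicate 2 and outside it in the other 4 libraries. The peak was broad and shallow, wider than 76.3% to 95.6% of the peaks of its list and at or below the 3.75th percentile of fold. It held the pair of motifs printed above, which the peak of every library covered, and 13% of 3694 regions of like width held as many.

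*Cish* had its promoter acetylated in all 5 libraries, over chr9:107295672-107297898. Percentiles were 49.1 and 34.1 in WT, and 1.37, 2.74 and 50.8 in TPdh-/- cells, with a fold between 1.95 and 2.21. TPdh-/- replicates 1 and 2 were among the weakest called peaks of their lists and TPdh-/- replicate 3 was the highest of all libraries, so the groups overlapped (difference 23.3, exact permutation test, two-sided p = 0.6). Ranked by fold the difference was 1.33, and without TPdh-/- replicate 3 it was 39.5. The peak was 1830 and 2094 bp wide in WT and 575, 782 and 1799 bp in TPdh-/- cells, each WT peak being wider than each TPdh-/- peak. An upstream region, chr9:107288192-107289925, near a start site of *Mapkapk3*, was also called in all 5 libraries, at percentiles of 30.3 to 84.0, without a match to the motif. A downstream region was called in WT replicate 2 and TPdh-/- replicate 3, at 2.95 and 18.7.

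The comparison of widths was chosen after the values were seen and is given without a test. Of the 4 genes with an own-promoter peak in all 5 libraries, *Il15ra* and *Cish* were wider in both WT libraries than in each TPdh-/- library, and *Il2rg* and *Bcl2* were not. *Il15ra* was 1412 and 1437 bp wide in WT and 893, 1168 and 1140 bp in TPdh-/- cells. Over the 2390 protein-coding genes with the peak in all 5 libraries, 31.3% were wider and 0.293% narrower in both WT libraries. With 4 members, 2 of them wider is a share near that background.

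*Bcl2* had 7 regions, as many as *Jak1*, in a gene of 176 kb. The promoter region, chr1:106710794-106713914, was called in all 5 libraries at percentiles 59.6 and 17.5 in WT and 66.5, 19.2 and 69.8 in TPdh-/- cells. Here the WT mean was lower, by 13.3 percentiles, and the groups overlapped (exact permutation test, two-sided p = 0.4). With lists of equal length the difference was −39.9 and the groups no longer overlapped (exact permutation test, two-sided p = 0.2, the smallest possible). This separation came from the cut itself. The called WT peaks ranked 6447 and 7311 in their lists, outside the strongest 4920, and counted as 0 there. In 4 libraries the promoter peak was over 2 kb wide, and in TPdh-/- replicate 2 it was 796 bp.

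An intronic *Bcl2* region, chr1:106611646-106614130, 101.4 kb after the 5′ end, was the other region of the gene with a peak in all 5 libraries. Its percentiles were 69.4 and 59.2 in WT and 55.3, 10.2 and 78.8 in TPdh-/- cells, again overlapping. The 3 motif matches printed above were covered by the peak of every library, and 6.13% of 1843 regions of like width held at least 3. A neighbouring intronic region, chr1:106606423-106608020, was called in both WT libraries, at percentiles 29.7 and 49.6, and in no TPdh-/- library. It held 4 matches, as 0.25% of 5207 regions of like width did, and lay within 3000 bp of a start site of *Gm37053*.

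The remaining 4 *Bcl2* regions were intronic too. That at chr1:106599529-106602469 was called in 4 libraries, at percentiles 47.5 and 26.4 in WT and 45.2 and 34.9 in TPdh-/- replicates 1 and 3, and held 2 matches of the stricter form. That at chr1:106687394-106689301 was called in both WT libraries and TPdh-/- replicate 3 with percentiles from 2.203 to 25.7. The last pair were called in WT replicate 1, and of these the region at chr1:106545130-106545894, near a start site of *Mir3473f*, in no other library.

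Of the 31 regions, 10 were at an own promoter, 11 intronic, 1 exonic, 6 downstream and 3 upstream of the gene. In all 5 libraries 7 of 31 were called (22.6%), against 16.8% of all 18410 merged regions. A single library called 8 (25.8%), against 43.4% of all. WT libraries alone called 8 (25.8%), against 41.1%, and TPdh-/- libraries alone called 2 (6.45%), against 8.46%. WT replicate 1, with the longest list, held 28 of them. The regions in both WT libraries and no TPdh-/- library were the pair named above, near *Ghdc* and in *Bcl2*, or 6.45% against 5.92% of all, which is a share near the background. No member region was in all 3 TPdh-/- libraries without WT, as 0.0272% of all were.

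Most member peaks were broad and most were of low fold, where a region called in several libraries counts once for each. Of 88 peaks over the 5 libraries, 58 were wider than the median of their list, 67 were below its median fold and 46 were both, where 27.4% to 29.5% of the peaks of each list were both. The median fold of the member peaks was 1.99 and 2.22 in WT, against 2.40 and 2.54 for the whole lists, and 2.22, 2.08 and 2.14 in TPdh-/- cells, against 2.65, 2.58 and 2.48. Among promoters *Il15ra*, *Stat5a* and the 5′ promoter of *Jak1* were the exceptions, with a fold above the median of the list in every library with the peak. By width the *Il2rb* peaks were narrow, at percentiles 26.9 and 17.6 in WT and 4.10 in TPdh-/- replicate 3. So was the 5′ promoter of *Jak1*, at 30.2 to 46.1. *Bcl2* had the most peaks that were both wide and of low fold, and *Jak1*, *Cish*, *Il2rg* and *Socs1* each had several.

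**Figure D4:**
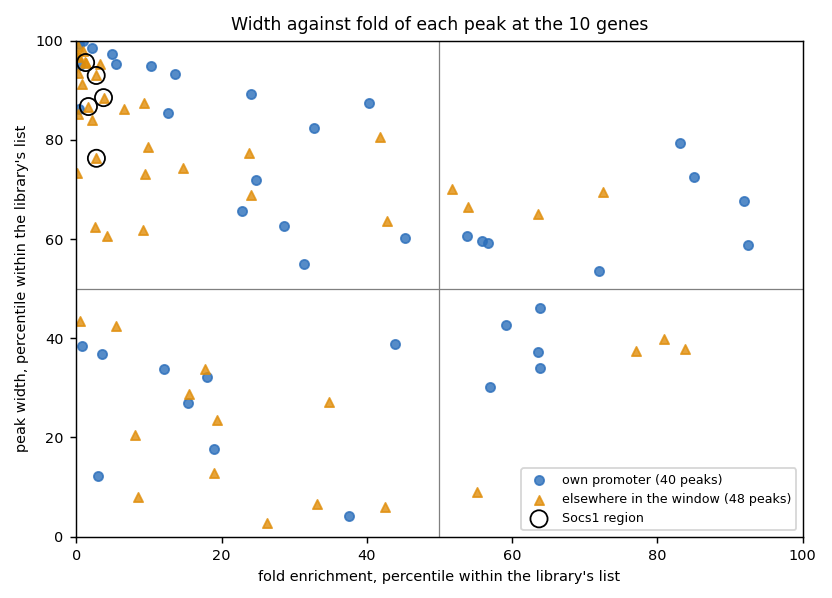
Width against fold enrichment of the 88 peaks at the 10 genes, each as a percentile within its library's list. Circles are 40 own-promoter peaks, triangles 48 peaks elsewhere in the windows, rings the *Socs1* region, and grey lines the list medians. Most points lie left of the median fold (67 of 88), and 46 are in the upper left field of wide peaks of low fold.

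The other genes of the pathway were 36 further receptors, kinases, STATs, inhibitors, adaptors and targets. An own-promoter peak was called for 32 and 22 of them in WT and for 15, 11 and 23 in TPdh-/- cells, so the groups overlapped. *Stat3*, *Stat6*, *Socs5*, *Ptpn2*, *Ptpn6*, *Pias4* and *Ccnd3* had it in all 5 libraries, and *Tyk2*, *Socs3*, *Gab2* and *Pik3cd* in none. The highest mean percentiles were those of *Pias4*, an inhibitor of STAT signalling, with 90.3, *Stat3* with 86.0 and *Socs5* with 68.9. *Pias4* was at 95.6 and 97.4 in WT and at 91.4, 80.5 and 86.5 in TPdh-/- cells, so both WT values were the higher. *Stat3* was at 71.7 and 78.02 in WT and at 92.8, 91.6 and 96.1 in TPdh-/- cells, so both WT values were the lower. *Socs5* was at 77.2 and 76.5 in WT and at 68.6, 35.9 and 86.7 in TPdh-/- cells, where the groups overlapped. Of the 32 genes with the peak in at least 1 library, 9 had both WT percentiles above each TPdh-/- percentile, against 21.2% of protein-coding genes, and *Stat3* alone had both below, against 0.369%. The direction of *Stat3* was singled out after its values were seen and is given without a test. *Akt1*, a kinase downstream of the receptor, was the single gene of the 36 with the peak in both WT libraries, at 49.8 and 39.3, and in no TPdh-/- library, a pattern of 2.21% of protein-coding genes.

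The remaining genes had the peak in some libraries. *Shc1*, an adaptor that links cytokine receptors to Ras, and *Socs4*, a SOCS box protein, ranked high in both WT libraries and in TPdh-/- replicate 3 and were not called in the other TPdh-/- libraries. *Shc1* was at 95.1 and 93.7 in WT and at 96.6 in TPdh-/- replicate 3, and *Socs4* at 86.8, 90.7 and 84.1. *Socs2*, a STAT5 target, was at 55.6 and 60.2 in WT, at 12.6 in TPdh-/- replicate 3 and not called in the others. *Bcl2l1*, which encodes the survival factor Bcl-xL, was at 88.8 and 90.3 in WT and at 56.6 and 67.2 in TPdh-/- replicates 2 and 3. *Il2ra*, the alpha chain of the IL-2 receptor, was at 34.05 and 17.6 in WT and at 8.74 in TPdh-/- replicate 2. *Il15* itself had the peak in WT replicate 1 alone, at 17.5. Also in part of the libraries were *Jak2*, *Stat2*, *Stat4*, *Socs6*, *Socs7*, *Ptpn11*, *Pias1*, *Pias2*, *Pias3*, *Pim1*, *Pim2*, *Mcl1*, *Myc*, *Ccnd2*, *Grb2*, *Sos1* and *Pik3r1*.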

How the data were processed

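ChIPseq of acetylated histones was analysed from 5 lists of broad peaks, 2 of WT and 3 of TPdh-/- T_M cells. The authors aligned reads to GRCm38/mm10 with BWA-mem (0.7.17), kept uniquely mapping reads outside blacklisted regions with Samtools (1.15.1) and called broad peaks with MACS2 (2.2.6) for each library. The deposited lists give each peak's fold enrichment, a linear ratio over background. They also give the authors' −log10 p (not used here) and −log10 q. Read counts are not in the lists.

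Peaks were assigned to genes of GENCODE M21 by an overlap of at least 1 bp, with Python 3.11.15, pandas 2.3.3, scipy 1.17.1 and pysam 0.24.0, checked against bedtools 2.31.1. A library's own-promoter percentile was that of its strongest own-promoter peak. Groups were compared per gene by the exact two-sided permutation test over 10 regroupings of the libraries, with p double the smaller one-sided p and no adjustment. On simulated lists, all 2000 genes were placed as made. All 10 members were named, and their neighbours where a start site lay within 3000 bp. Of the 36 other pathway genes, those with the peak in some libraries and the 3 with the highest mean percentile were named. Some genes of the lists are not reported here. The members, gene lists and tests were chosen with earlier results of these data known. Alternatives were a minimum −log10 q of 2 and of 5, lists cut to the shortest length, midpoint overlap, other windows and promoter distances, ranking by fold, a replicate block and leaving out each library. Percentiles among regions shared by all 5 libraries, shares of the list and leaving out the longest list of each group were chosen after seeing the data.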

Additional observations from a re-analysis of the deposited data

How the results depend on the processing

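With lists of equal length, the excess of WT over TPdh-/- in members with an own-promoter peak went from 1.00 to −2.50, that in peaks of the 10 windows from 0.58 to −0.71 and that in covered length from 0.85 to −0.53 (both log2). As shares of the list, peaks gave −0.31 and covered length −0.19. With a minimum −log10 q of 5 the log2 ratio of peaks was 1.39. Leaving out each library gave 0.00 to 2.00 members, 0.13 to 1.00 for peaks and 0.29 to 1.41 for length. The replicate block (numbers 1 and 2, TPdh-/- replicate 3 left out) gave 2.00 members, 0.94 and 1.33. The numbers are not stated to pair the libraries, and with 2 pairs the correlations of deviations over the 10 genes were 0.37 and 0.36.

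Settings that left a gene without an own-promoter peak in any library were dropped for that gene. Midpoint overlap and the other promoter distances returned the reported difference for each gene with a value, so they could not change its sign. With lists of equal length, called peaks beyond the strongest 4920 of a list counted as 0. Of 111 alternatives of the genes' own-promoter differences, those unchanged ones included, 11 changed sign. These were *Il2rg* with lists of equal length (−23.9), ranked by fold (−8.21), without TPdh-/- replicate 1 (−5.40) and among regions in all 5 libraries (−12.1), *Jak1* with a minimum −log10 q of 5 (26.5) and without WT replicate 2 (16.8), *Jak3* with lists of equal length (−9.98) and without WT replicate 1 (−1.06), *Stat5a* without WT replicate 1 (−12.1), *Cish* with lists of equal length (−2.37) and *Bcl2* without WT replicate 2 (7.79). Leaving out 1 library at a time gave 10.1 (without TPdh-/- replicate 1 or 2) to 33.3 (without TPdh-/- replicate 3) for *Il2rb*, 3.78 (without TPdh-/- replicate 1) to 13.2 (without TPdh-/- replicate 3) for *Il15ra*, 14.9 (without TPdh-/- replicate 1) to 39.5 (without TPdh-/- replicate 3) for *Cish*, −5.40 to 13.9 for *Il2rg*, −76.9 to 16.8 for *Jak1*, −1.06 to 30.0 for *Jak3*, −12.1 to 37.4 for *Stat5a*, 27.9 to 43.5 for *Stat5b* and −34.3 to 7.79 for *Bcl2*. Without TPdh-/- replicate 2 *Cish* was 15.5, and without WT replicate 1 *Il15ra* was 5.19 and *Cish* 15.8. Ranking by fold lowered *Cish* from 23.3 to 1.33, *Il2rb* from 17.8 to 4.65, *Il15ra* from 8.27 to 4.35, *Stat5a* from 12.7 to 6.75 and *Stat5b* from 35.7 to 18.7, raised *Jak3* from 14.5 to 25.4 and brought *Bcl2* from −13.3 to −2.41. The lowest p with all 5 libraries was 0.2, the smallest possible. The causes were not tested. The number of reads behind each list is unknown, and a peak missing from a list is not shown to be absent from the cells.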

Other observations

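Among the 3099 merged regions with a peak in all 5 libraries, a comparison on a common scale that was chosen after seeing the data, the *Il15ra* promoter was at percentiles 90.1 and 79.98 in WT and 68.65, 78.5 and 90.2 in TPdh-/- cells. The *Cish* promoter was low among these regions, at 5.76 and 8.02 in WT and 0.18, 0.53 and 18.8 in TPdh-/- cells. *Bcl2* was at 11.99 and 2.27 in WT and 55.6, 8.15 and 41.2 in TPdh-/- cells, and *Il2rg* at 2.47 and 16.2 in WT and 10.9, 44.6 and 8.92 in TPdh-/- cells. In each of these genes the groups overlapped.

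The promoters of the receptor chains and of the kinase *Jak3* differed in base composition. The regions at *Il2rg* and *Il2rb* had an observed to expected CpG ratio of 0.12 and 0.21, lower than that of the median merged region (0.30), while *Il15ra* had 0.47 and *Jak3* 0.50.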
